A study of Homo sapiens with 7 samples.

Results

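The mitosis genes described here are 42 genes that act in the G2 and M phases of the cell cycle, chosen by symbol from the 23710 genes of an RNA sequencing table. They code for CDK1 and its cyclins, mitotic kinases, the spindle checkpoint, the kinetochore, kinesins, spindle proteins, the anaphase machinery and chromosome proteins. All 42 were in the table, and all 42 passed the filter on low values (mean over libraries of 50 or more normalized counts), as did 53.0% of all genes. The rule lists symbols and uses no measured value, but the members were chosen with earlier results of these data known.

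The cells were SNU398, an established human hepatocellular carcinoma line. Every RNA library came from cells given 30 µM of a peptide for 8 hours, with 1 library each for the peptides PEN, PEN-WT, PEN-MUT and PEN-FFW. PEN stands for penetratin, a carrier peptide that enters cells. The other peptides carry it too. As known of this work, PEN-WT adds the stretch of the transcription factor SALL4 that binds RBBP4, a histone-binding subunit of the NuRD complex, PEN-MUT a mutated form of it, and PEN-FFW an engineered variant. No RNA library used here came from cells without peptide, and PEN and PEN-MUT serve as controls. Chromatin samples of the same series are not analysed here. Of 10 liver markers 2 passed the filter, ALB at 83.1 to 157 normalized counts and the oncofetal GPC3 at 998 to 1281, and 6 were at the lowest value in every library. Of 5 epithelial markers 1 passed, with summed counts of 731 to 1120 over the list and KRT8 and KRT18 at the lowest value. Of 5 leukocyte markers 2 passed, with summed counts of 538 to 671, and all 4 endothelial markers were at the lowest value. Of 6 fibroblast and stellate markers 4 passed, with summed counts of 62589 to 89849, nearly all from vimentin (VIM), an intermediate filament of mesenchymal cells, at 60313 to 86516.

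Mitotic entry is driven by CDK1 bound to cyclin A or cyclin B, after CDC25 phosphatases remove inhibitory phosphates. Kinetochores then attach chromosomes to the spindle, checkpoint proteins hold back the anaphase-promoting complex until attachment is complete, and its activator CDC20 then triggers loss of cyclin B and securin. Transcripts of these genes accumulate together in G2, under MYBL2, FOXM1 and the MuvB complex, whose LIN54 subunit binds a promoter element named the cell cycle genes homology region (CHR). RBBP4, the partner of the SALL4 peptides, is also a subunit of MuvB. In bulk RNA, fewer cells in G2 and M and less RNA per cell cannot be told apart.

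The promoters show what most of these genes share. The commonest CHR has the letters TTTGAA and a variant of it has TTTAAA, while the transcription factor NF-Y binds the letters CCAAT. These 3 motifs were searched on both strands in the 250 bases before each RefSeq start site (GRCh38.p14), where 46 promoters of 36 members matched by symbol. Capitals in the sequences mark these motifs, in either orientation, over the last 120 bases before the start. CCNB2 meets the rule for printing, a CDK1 or cyclin group promoter with TTTGAA. CDK1 and CDC25C meet it too but have more than 1 annotated start, so that a window before 1 start can lie in transcribed sequence of another, and they are not shown. CCNB1 is shown for TTTAAA and PLK1 as a mitotic kinase. ESPL1 and MKI67 are shown because they stood higher in PEN-FFW than in PEN relative to the median tested gene. These additions were all chosen after their values were seen.
CCNB1, chr5:69167030-69167149, plus strand: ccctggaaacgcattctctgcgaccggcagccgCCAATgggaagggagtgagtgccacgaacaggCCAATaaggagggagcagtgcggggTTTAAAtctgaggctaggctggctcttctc
CCNB2, chr15:59105026-59105145, plus strand: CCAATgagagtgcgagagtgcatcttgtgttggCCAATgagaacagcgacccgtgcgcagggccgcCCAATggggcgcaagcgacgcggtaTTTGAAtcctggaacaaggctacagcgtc
PLK1, chr16:23678769-23678888, plus strand: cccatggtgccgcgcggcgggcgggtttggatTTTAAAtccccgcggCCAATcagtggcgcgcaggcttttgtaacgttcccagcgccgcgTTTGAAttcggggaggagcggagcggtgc
ESPL1, chr12:53268179-53268298, plus strand: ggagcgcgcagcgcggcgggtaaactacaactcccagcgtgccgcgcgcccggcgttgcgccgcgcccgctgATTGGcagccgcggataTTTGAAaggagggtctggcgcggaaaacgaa
MKI67, chr10:128126424-128126543, minus strand: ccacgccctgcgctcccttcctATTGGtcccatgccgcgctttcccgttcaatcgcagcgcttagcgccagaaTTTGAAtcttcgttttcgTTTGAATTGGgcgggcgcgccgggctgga

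In CCNB2 and PLK1 the TTTGAA began 29 bases before the start, in ESPL1 31 bases, and in CCNB1 the TTTAAA began 30 bases before it. MKI67 held TTTGAA at 47 and at 29 bases, the nearer copy overlapping a reversed CCAAT. Over the 250 bases, TTTGAA was present in 24 of the 46 member promoters (52.2%), against 13.3% of 35116 promoters in the RefSeq table. CCAAT was present in 35 of them (76.1%), against 32.0% of all, and TTTAAA in 13 (28.3%), against 11.3%. In the last 100 bases, 14 member promoters (30.4%) held both TTTGAA and CCAAT, against 0.923% of all promoters. Of 32 TTTGAA matches in member promoters, 18 began between 10 and 50 bases before the start, in 15 members. The split by these letters was not tested, and members without TTTGAA in the last 100 bases are not members without CHR letters. They include CCNB1, with TTTAAA, and TOP2A, with TTTGAA farther upstream. The 17 members with TTTGAA in the last 100 bases had a median difference of PEN-FFW from PEN of -0.04 on the log2 scale set out below, and the 19 matched members without it a median of -0.06. The same medians were 0.06 and 0.11 in PEN-MUT minus PEN, 0.07 and 0.04 in PEN-WT minus PEN, 0.03 and -0.05 in PEN-WT minus PEN-MUT, -0.13 and -0.18 in PEN-FFW minus PEN-MUT, and -0.13 in both for PEN-FFW minus PEN-WT.

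**Figure D1:**
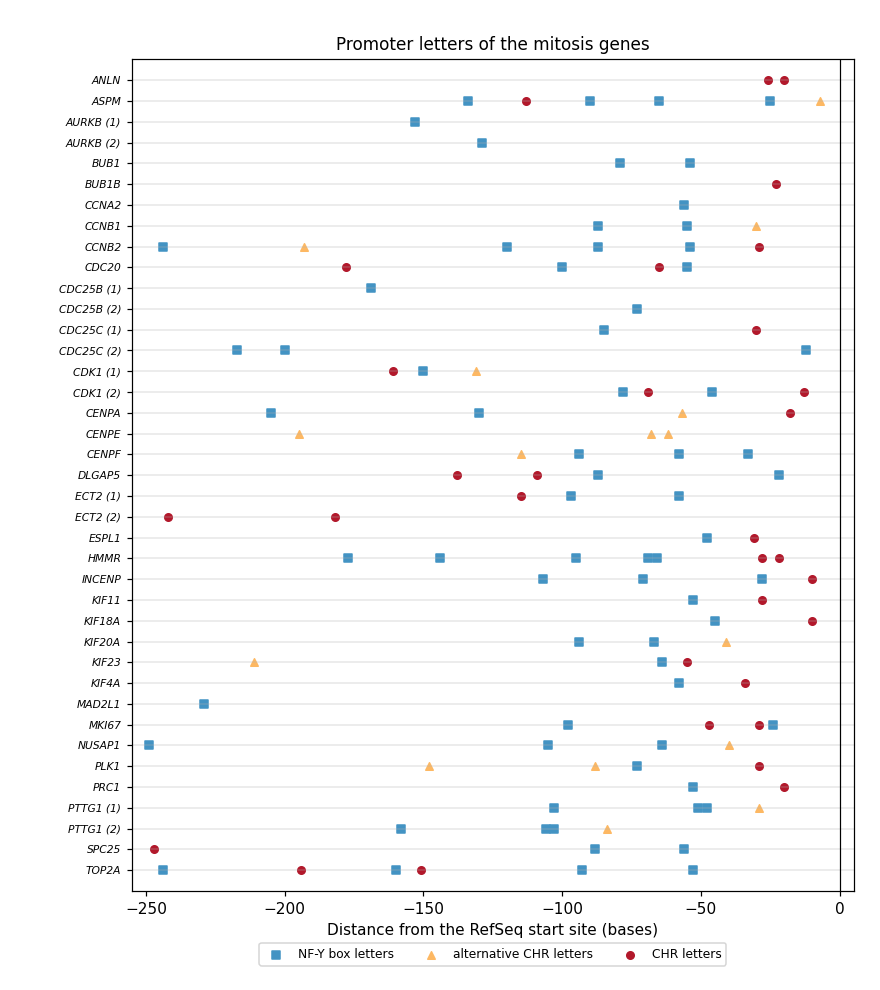
Position of 3 motifs in the 39 member promoters that hold at least 1 of them, in bases from the RefSeq start site (x axis), with CHR letters (TTTGAA) as circles, alternative CHR letters (TTTAAA) as triangles and NF-Y box letters (CCAAT) as squares; numbers after a gene name tell its starts apart. Of 32 CHR matches, 18 begin between 10 and 50 bases before the start.

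The deposited values are log2 normalized counts, and normalized counts are given below with the log undone. Reads in genes above the lowest value numbered 27347377 to 40717633 per library, with PEN-FFW the least deeply sequenced. A difference between a pair of libraries is taken on the scale log2(normalized count + 10), less the median of the same difference over the 12578 tested genes. That median gene stood at -0.27 for PEN-FFW minus PEN and -0.30 for PEN-FFW minus PEN-MUT as deposited, and within 0.03 of 0 for PEN-MUT and PEN-WT against PEN. The ± sign gives the standard error from counting reads alone. With 1 library per peptide, cultures cannot be compared with their replicates, no test was possible and none of the differences has a p-value. "Higher" and "lower" therefore describe these 4 libraries only.

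Mitosis genes were abundant in all 4 libraries. Their reads made up 0.871% of the PEN library (95% Wilson interval 0.868 to 0.874), 0.921% of PEN-MUT (0.918 to 0.925), 0.938% of PEN-WT (0.935 to 0.941) and 0.909% of PEN-FFW (0.906 to 0.913), intervals that cover counting error only. MKI67 alone took 0.0930% of the PEN-FFW reads and 0.0534% of the PEN reads. Without it the shares were 0.817% with PEN, 0.816% with PEN-FFW, 0.871% with PEN-MUT and 0.875% with PEN-WT. Per kilobase of canonical transcript, the ubiquitin-conjugating enzyme gene UBE2C led in PEN with 6233 normalized counts, followed by CDK1 (5818), BIRC5 (4959) and CDC20 (4690). The phosphatase gene CDC25C was lowest with 366, below the separase gene ESPL1 (658) and the checkpoint gene MAD2L1 (673).

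As deposited, PEN-FFW was the lowest of the 4 libraries for 39 of the 42 members. The same held for 76.0% of all tested genes. In pairs, 39 members were lower as deposited in PEN-FFW than in PEN (79.8% of tested genes), 41 lower than in PEN-MUT (82.3%) and 41 lower than in PEN-WT (87.9%). Relative to the median gene, PEN-FFW was lowest for 30 members, against 35.4% of tested genes. PEN-MUT was the highest library for 25 members, against 23.8% of tested genes on that scale. MKI67 was the only member with its highest deposited count in PEN-FFW, as 9.99% of tested genes had.

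**Figure D2:**
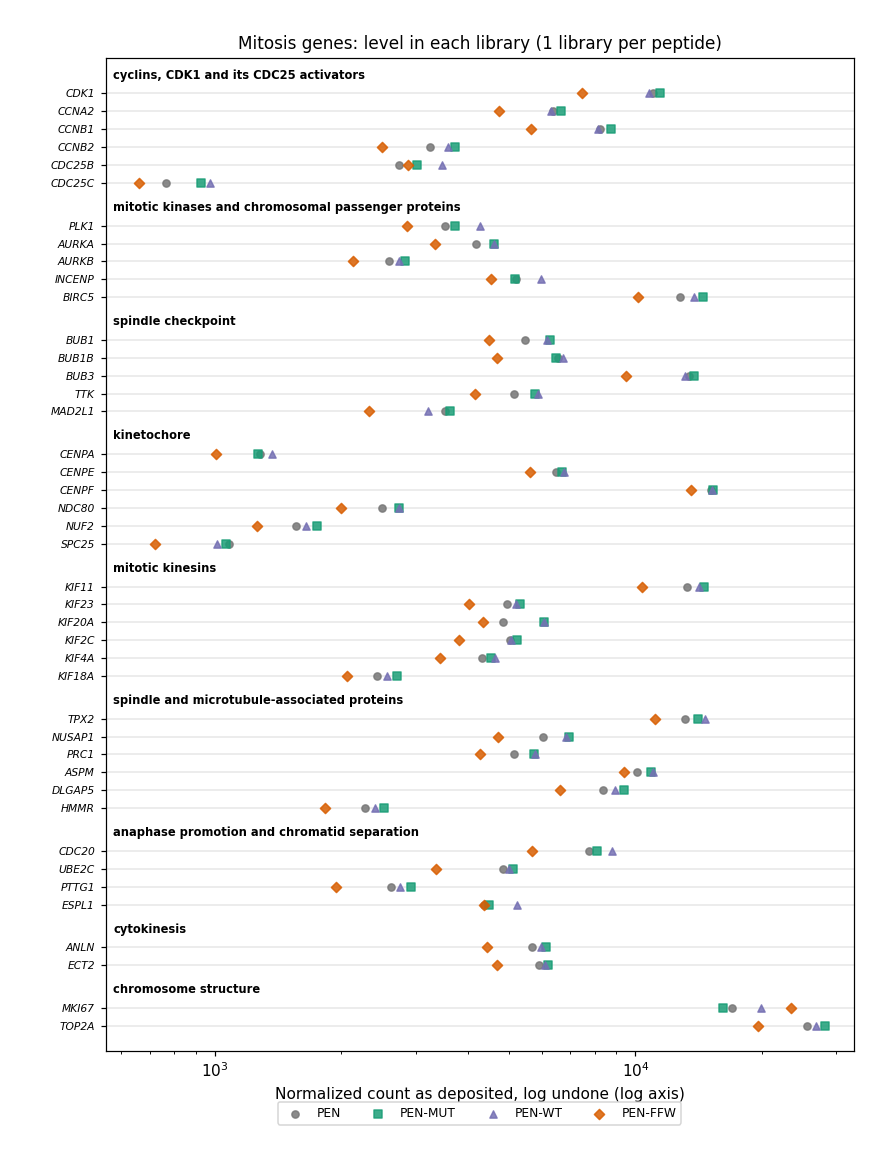
Normalized count as deposited with the log undone (log axis) of each of the 42 mitosis genes, grouped by role, with 1 point per library. PEN-FFW (diamonds) is the leftmost point for 39 genes and the rightmost for MKI67.

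All 6 pairs of libraries were compared at the same dose and time. The mitosis genes, set against the median tested gene, stood slightly higher in PEN-MUT and in PEN-WT than in PEN, and lower in PEN-FFW than in each of the others. The direction against PEN turned when they were centred on genes with a mean of at least 1000 (median 0.0076), set against genes of the same mean count (0.043) or adjusted by a linear fit on GC content, length and mean count (0.15), and that against PEN-MUT turned in the linear fit (0.058). In PEN-MUT minus PEN their median was 0.08, with lower and upper quartiles of 0.04 and 0.14, and 36 of 42 lay above the median tested gene, as 50% of tested genes do by construction. In PEN-WT minus PEN the median was 0.06 and 34 lay above. For PEN-FFW minus PEN it was -0.06, with 12 above. For PEN-FFW minus PEN-MUT it was -0.17, with 7 above, and for PEN-FFW minus PEN-WT -0.14, with 6 above. PEN-WT minus PEN-MUT gave -0.03, with 16 above. The 3 comparisons with PEN rest on the same PEN library. Likewise the 3 with PEN-FFW rest on the same PEN-FFW library, the least deeply sequenced.

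**Figure D3:**
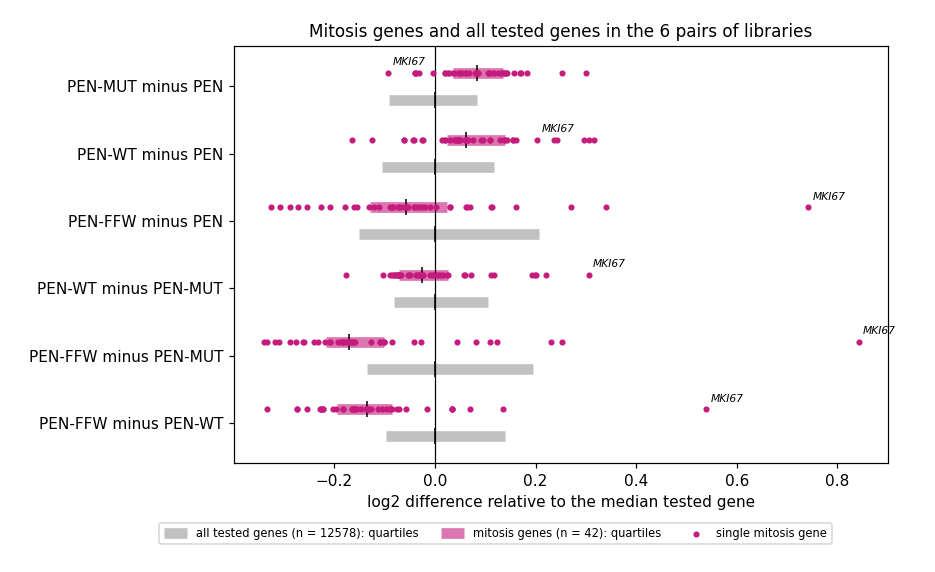
Log2 difference relative to the median tested gene in the 6 pairs of libraries, with bars spanning the quartiles, a tick at the median, and points for single mitosis genes. The medians of the 42 mitosis genes lie between -0.17 and 0.08, and MKI67 is the rightmost point in every comparison with PEN-FFW as the first library.

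At 1.2-fold, 0 to 6 members were called each way in a pair of libraries. In PEN-FFW minus PEN, 3 members were at least 1.2-fold higher (CDC25B, ESPL1 and MKI67), against 20.8% of tested genes, and 4 at least 1.2-fold lower (CDK1, CCNB1, MAD2L1 and SPC25), against 9.87%. More abundant genes were called less often. Among genes with a mean count of at least 500 the shares were 14.8% and 6.83%, with 3 members higher and 1 lower. In PEN-FFW minus PEN-MUT, 1 was higher (MKI67), against 19.8% of tested genes, and 6 were lower (CDK1, CCNB1, CCNB2, MAD2L1, UBE2C and PTTG1), against 6.27%. PEN-FFW minus PEN-WT had 1 higher (MKI67), against 14.2%, and 3 lower (CDC20, PLK1 and UBE2C), against 2.70%. PEN-WT minus PEN had 3 higher (CDC25B, CDC25C and KIF20A), against 9.29%, and 0 lower, against 5.92%. PEN-MUT minus PEN had 1 higher (KIF20A), against 4.06%, and 0 lower, against 5.36%, and PEN-WT minus PEN-MUT 1 higher (MKI67), against 8.36%, and 0 lower, against 1.37%. MKI67 was the only member at least 1.5-fold from the median gene, a call that rests on centring. As deposited MKI67 was at 0.47 from PEN and 0.54 from PEN-MUT, under 1.5-fold, and the members at least 1.5-fold lower in PEN-FFW were MAD2L1 against PEN (6.07% of tested genes on that scale), CDK1, CCNB1, MAD2L1, UBE2C and PTTG1 against PEN-MUT (4.4%) and CDC20 against PEN-WT (2.05%). After centring it was so for PEN-FFW against PEN and against PEN-MUT, where 7.24% of tested genes were at least that much higher in each, and 0.437% and 0.0875% that much lower. In the other 4 pairs 0 members were, against 0.215% of tested genes higher and 0.35% lower in PEN-MUT minus PEN, 0.827% and 0.374% in PEN-WT minus PEN, 0.898% and 0.0159% in PEN-WT minus PEN-MUT, and 4.17% and 0.0318% in PEN-FFW minus PEN-WT.

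CDK1, the kinase that starts mitosis, is at chromosome 10, 62538089 to 62554610, plus strand (GRCh37, GENCODE 44). It had 10990 normalized counts with PEN, 11448 with PEN-MUT, 10764 with PEN-WT and 7463 with PEN-FFW, so 3 libraries lay close together and PEN-FFW apart. Relative to the median gene CDK1 stood at -0.29 ± 0.02 in PEN-FFW minus PEN, and at 0.04 ± 0.02 and -0.06 ± 0.02 in PEN-MUT and PEN-WT. Cyclin B1 (CCNB1, chromosome 5, 68462962 to 68474072, plus strand) followed the same order, with 8236 normalized counts with PEN, 8761 with PEN-MUT, 8162 with PEN-WT and 5651 with PEN-FFW. Its PEN-FFW differences were -0.27 ± 0.02 from PEN, -0.33 ± 0.02 from PEN-MUT and -0.23 ± 0.02 from PEN-WT. The kinase and its main mitotic cyclin thus had nearly equal values in each of these comparisons. Cyclin B2 (CCNB2) was closer to PEN, at -0.11 ± 0.04, and cyclin A2 (CCNA2), which also acts in S phase, at -0.15 ± 0.03.

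The CDC25 phosphatases, which activate CDK1, were highest in PEN-WT as deposited. CDC25B (chromosome 20, 3767419 to 3786768, plus strand), which acts at the entry to mitosis, had 2745 normalized counts with PEN, 3019 with PEN-MUT, 3469 with PEN-WT and 2882 with PEN-FFW. Relative to the median gene CDC25B was at 0.31 ± 0.03 in PEN-WT and 0.34 ± 0.04 in PEN-FFW minus PEN. As deposited its PEN-FFW difference from PEN was 0.07. Against genes of the same GC content, or in the linear fit, CDC25B was no longer 1.2-fold higher than PEN in either. PEN-FFW and PEN-WT differed by 0.03 for CDC25B (95% counting interval -0.03 to 0.10). CDC25C had 765 normalized counts with PEN, 927 with PEN-MUT, 976 with PEN-WT and 661 with PEN-FFW. It was higher in PEN-MUT (0.25 ± 0.07) and PEN-WT (0.32 ± 0.06) than in PEN, and PEN-FFW differed from PEN by 0.06 ± 0.07, within counting error.

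The mitotic kinases and the chromosomal passenger proteins, which correct faulty attachments, stayed within 0.07 of the median gene in PEN-FFW minus PEN. Polo-like kinase 1 (PLK1) had 3527 normalized counts with PEN, 3730 with PEN-MUT, 4265 with PEN-WT and 2858 with PEN-FFW. It was highest in PEN-WT, at 0.24 ± 0.03 from PEN and 0.19 ± 0.03 from PEN-MUT, and PEN-FFW was lower than PEN-WT by 0.27 ± 0.03. INCENP, the scaffold of the passenger complex, also stood higher in PEN-WT, at 0.16 ± 0.02 from PEN and 0.20 ± 0.03 from PEN-MUT. Aurora kinases A and B (AURKA and AURKB) had PEN-FFW values of -0.05 ± 0.03 and -0.01 ± 0.04 from PEN. Survivin (BIRC5), a further passenger subunit, had 12763 normalized counts with PEN, 14438 with PEN-MUT, 13748 with PEN-WT and 10159 with PEN-FFW. It stood at 0.16 ± 0.02 in PEN-MUT and -0.06 ± 0.02 in PEN-FFW minus PEN.

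All 5 spindle checkpoint genes had negative PEN-FFW differences from PEN, PEN-MUT and PEN-WT, with medians of -0.21, -0.19 and -0.17. These comparisons share the PEN-FFW library, which was the lowest on that scale for 30 of the 42 members and 35.4% of tested genes. MAD2L1 codes for the protein that binds and inhibits CDC20, and lies on chromosome 4 (120976778 to 120988013, minus strand). It had 3518 normalized counts with PEN, 3622 with PEN-MUT, 3205 with PEN-WT and 2323 with PEN-FFW. PEN and PEN-MUT were alike, PEN-WT lower (-0.16 ± 0.03 from PEN) and PEN-FFW lowest, at -0.33 ± 0.04, the lowest value of any member in that comparison. BUB3 (-0.23 ± 0.02) and BUB1B (-0.21 ± 0.03), which join MAD2 in the inhibitory complex, followed. The checkpoint kinases BUB1 (-0.02 ± 0.03) and TTK (-0.04 ± 0.03) were near the median gene in PEN-FFW, and higher than PEN in PEN-MUT (0.17 ± 0.03 and 0.14 ± 0.03).

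The 6 kinetochore genes ranged from -0.31 to 0.11 in PEN-FFW minus PEN. CENPF and CENPE, with long transcripts for a coiled-coil protein and a motor of the outer kinetochore, were at 0.11 ± 0.02 and 0.06 ± 0.02 in PEN-FFW minus PEN. SPC25, a short transcript for a subunit of the NDC80 complex that grips microtubules, had 1080 normalized counts with PEN, 1066 with PEN-MUT, 1011 with PEN-WT and 720 with PEN-FFW. It stood at -0.31 ± 0.06 from PEN, with the annotated genes NOSTRIN and G6PC2 overlapping it on the opposite strand. Its complex partners NDC80 and NUF2 were at -0.06 ± 0.04 and -0.04 ± 0.05, and the centromeric histone gene CENPA at -0.07 ± 0.06. SPC24, the remaining subunit, is not a member and was at 0.19 ± 0.07. In PEN-FFW minus PEN-MUT SPC25, NDC80 and NUF2 were at -0.26 ± 0.07, -0.16 ± 0.04 and -0.17 ± 0.05, with overlapping counting intervals.

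Mitotic kinesins, the motors that build the spindle and move chromosomes, were close together. In PEN-FFW minus PEN-MUT all 6 lay between -0.18 and -0.10, where 35 of the 42 members and 50% of tested genes lay below 0. KIF20A, needed for cytokinesis, was the exception among the comparisons with PEN, with 4840 normalized counts with PEN, 6052 with PEN-MUT, 6074 with PEN-WT and 4342 with PEN-FFW. Relative to the median gene KIF20A was higher than PEN in PEN-MUT (0.30 ± 0.03) and PEN-WT (0.30 ± 0.02), and by 0.11 ± 0.03 in PEN-FFW. KIF20A overlaps the genes BRD8 and CDC23, which lie on the opposite strand. KIF11, the motor that pushes spindle poles apart, had 13278 normalized counts with PEN, 14512 with PEN-MUT, 14168 with PEN-WT and 10388 with PEN-FFW, with -0.08 ± 0.02 in PEN-FFW minus PEN. KIF2C, a microtubule depolymerase, was at -0.13 ± 0.03, while KIF23, KIF4A and KIF18A lay between -0.07 and 0.03.

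Genes of spindle and microtubule-associated proteins were all higher in PEN-MUT than in PEN relative to the median gene, by 0.08 to 0.18, and in PEN-WT by 0.05 to 0.14. So were 36 and 34 of the 42 members, and 50% of tested genes by construction. In PEN-FFW they lay between -0.08 and 0.16. NUSAP1, which bundles microtubules, had 6043 normalized counts with PEN, 6964 with PEN-MUT, 6818 with PEN-WT and 4724 with PEN-FFW. It had the largest PEN-MUT value of the group (0.18 ± 0.02) and stood at -0.26 ± 0.03 in PEN-FFW minus PEN-MUT. ASPM, a spindle pole gene with a long transcript, stood highest in PEN-FFW minus PEN, at 0.16 ± 0.02. TPX2, the activator of Aurora A, was at 0.03 ± 0.02, and PRC1, which bundles the central spindle, at 0.00 ± 0.03. DLGAP5 (-0.07 ± 0.02) and HMMR (-0.04 ± 0.04), both of which bind the spindle, were close by.

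Of the genes that drive anaphase, the activator and the enzyme of the anaphase-promoting complex were lower in PEN-FFW than in PEN relative to the median gene. The downstream protease was higher on that scale, but nearly equal in PEN and PEN-FFW as deposited. The protease gene was no longer 1.2-fold higher against genes of the same GC content or length, or in the linear fit. CDC20 had 7734 normalized counts with PEN, 8109 with PEN-MUT, 8801 with PEN-WT and 5664 with PEN-FFW. It was higher in PEN-WT than in PEN (0.16 ± 0.02), lower in PEN-FFW (-0.18 ± 0.02), and its difference of -0.33 ± 0.02 was the lowest of any member in PEN-FFW minus PEN-WT. UBE2C had 4843 normalized counts with PEN, 5127 with PEN-MUT, 5015 with PEN-WT and 3362 with PEN-FFW, a difference of -0.25 ± 0.03 from PEN. Securin (PTTG1), the inhibitor of separase, stood at -0.16 ± 0.04. Separase itself (ESPL1, chromosome 12, 53662083 to 53687422, plus strand) had 4354 normalized counts with PEN, 4497 with PEN-MUT, 5242 with PEN-WT and 4356 with PEN-FFW. Separase was higher relative to the median gene in PEN-WT (0.24 ± 0.03) and PEN-FFW (0.27 ± 0.03) than in PEN, and these differed from each other by 0.03 (interval -0.02 to 0.09). The cytokinesis genes ANLN and ECT2 were at -0.09 ± 0.03 and -0.05 ± 0.03 in PEN-FFW minus PEN.

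MKI67 stood apart from the other members. It codes for Ki-67, a protein that coats mitotic chromosomes and serves as a marker of proliferation, and lies on chromosome 10 (129894923 to 129924687, minus strand), where the annotation has no overlapping gene. It had 16940 normalized counts with PEN, 16108 with PEN-MUT, 19913 with PEN-WT and 23484 with PEN-FFW. PEN-FFW was the highest library even as deposited, where nearly all other members had their lowest value. Relative to the median gene MKI67 was higher in PEN-FFW by 0.74 ± 0.01 than in PEN (1.67-fold), by 0.84 ± 0.01 than in PEN-MUT and by 0.54 ± 0.01 than in PEN-WT. PEN-WT was itself higher than PEN by 0.20 ± 0.01, and PEN-MUT minus PEN was -0.09 ± 0.02. TOP2A, the topoisomerase that untangles sister chromatids and another common proliferation marker, did not do the same. It had 25625 normalized counts with PEN, 28209 with PEN-MUT, 26934 with PEN-WT and 19535 with PEN-FFW, a PEN-FFW difference of -0.12 ± 0.01 from PEN. Beside this, the nuclear RNAs MALAT1 (0.61), NEAT1 (1.08) and KCNQ1OT1 (1.66) were also higher in PEN-FFW than in PEN. They were the highest of a list of 6 nuclear and RNA quality markers. Of these 4 were above the median gene, as 50% of tested genes are by construction, and 2 below it, the lowest at -0.23. In PEN-MUT minus PEN all 6 were below it. The part of RNA quality in the MKI67 value was not tested.

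**Figure D4:**
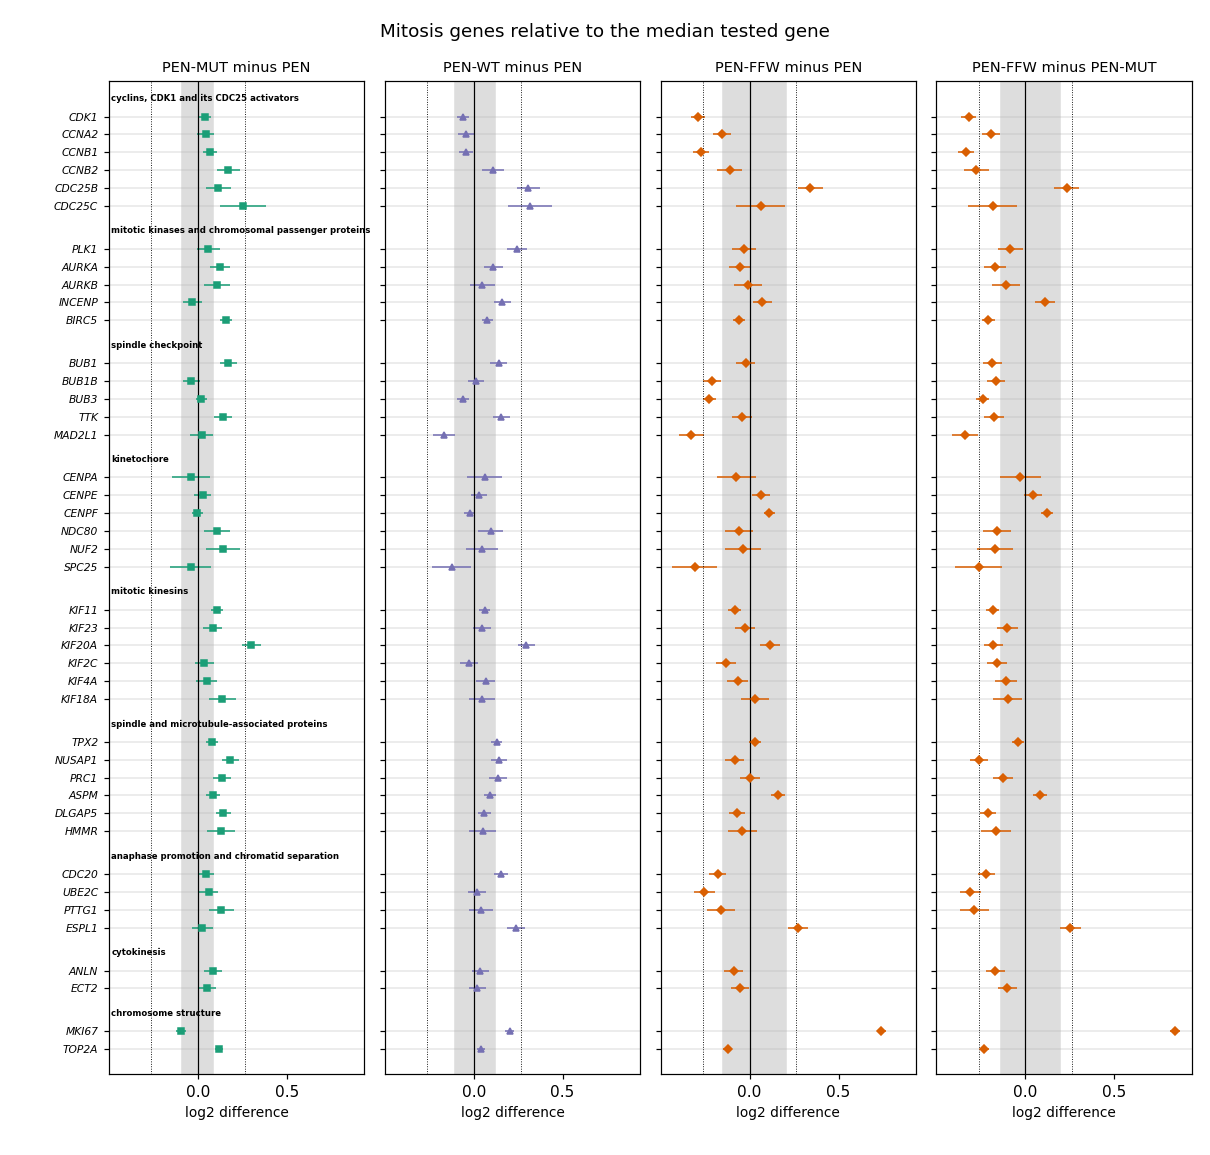
Log2 difference of the 42 mitosis genes from the median tested gene in 4 of the 6 pairs, with bars for the 95% counting interval, a grey band spanning the quartiles of all tested genes, and dotted lines at 1.2-fold. Most members of PEN-FFW minus PEN-MUT lie left of 0, with MKI67 at 0.84.

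Differences of PEN-FFW tended to be higher for members with longer transcripts. Across the 42 genes, which are not independent and share the same libraries, the Spearman correlation with transcript length was 0.412 for PEN-FFW minus PEN, and 0.368 without MKI67. Over 12100 tested genes with a known transcript it was 0.193. All 9 members with transcripts under 2 kb lay below the median gene in PEN-FFW minus PEN, with a median of -0.16, against -0.08 for all tested genes of that length. Of those 2830 tested genes, 1075 lay above the median gene. The 9 members of 5 kb or longer had a median of 0.06, with 5 above 0. All 3387 tested genes of that length had the same median, with 2007 above 0. MAD2L1 (-0.33), BUB3 (-0.23), TOP2A (-0.12) and KIF11 (-0.08) were the long members below 0.

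Differences of PEN-WT tended to be higher for members richer in GC. The correlation with transcript GC content across members was 0.507 for PEN-WT minus PEN and 0.205 for PEN-FFW minus PEN, and over all tested genes 0.358 and 0.364. The members are poor in GC, with a median of 42.1% against 48.3% for tested genes. CDC25B (59.1%), INCENP (58.8%), PLK1 (57.1%), ESPL1 (57.0%) and CDC20 (56.9%) were the richest. Relative to the median gene they stood at 0.16 to 0.31 in PEN-WT minus PEN. The next richest were closer to the median gene, with AURKB (55.7%) at 0.05, BIRC5 (51.2%) at 0.08, UBE2C (51.1%) at 0.02 and KIF2C at -0.03. The members were also abundant, with a median mean count of 5232 against 1091, and over all tested genes PEN-FFW minus PEN was lower for more abundant genes (correlation -0.377, against -0.0069 among members). Set against genes of the same mean count, the median of the members in PEN-FFW minus PEN was 0.04 rather than -0.06, and in PEN-FFW minus PEN-MUT -0.07 rather than -0.17. With GC content, length and mean count in 1 linear fit the medians were 0.15 and 0.06, and CDK1 (0.16) and CCNB1 (0.04) lay above 0 in PEN-FFW minus PEN. The lower position of the members in PEN-FFW against PEN therefore depended on which genes they were set against, while MKI67 lay between 0.47 and 0.91 in that comparison under the 10 settings tried. The part of length, GC content and abundance in these differences was not tested further.

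**Figure D5:**
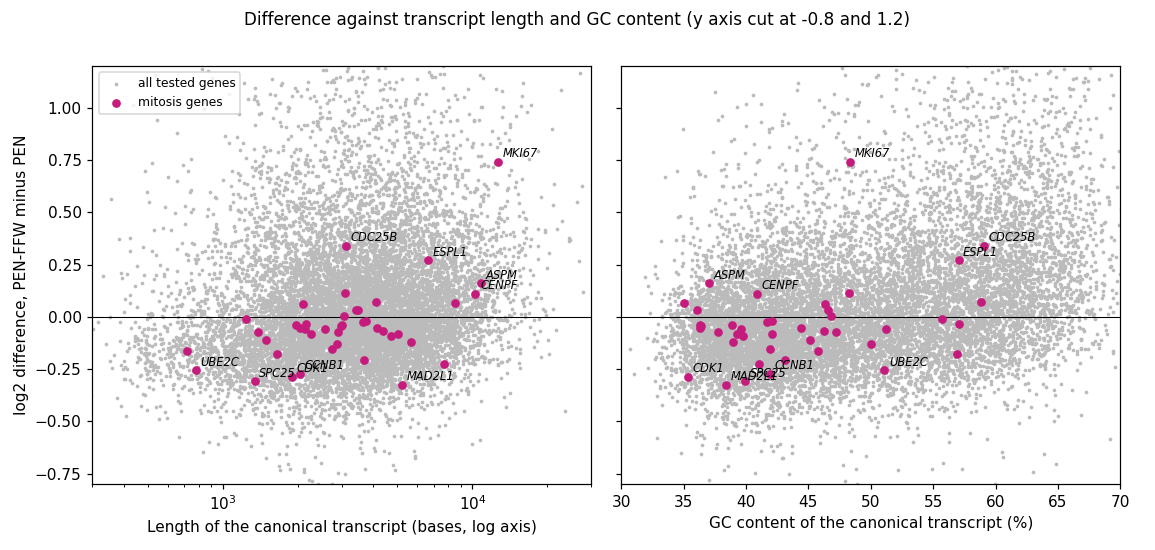
Log2 difference of PEN-FFW minus PEN, relative to the median tested gene, against transcript length (left, log axis) and transcript GC content (right), for all tested genes in grey and the mitosis genes in colour. Members with short transcripts lie below 0 and MKI67 is far above the other members of similar length.

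Other genes of mitosis came from 6 lists of 108 genes that all passed the filter. Their median was 0.05 in PEN-MUT minus PEN, -0.06 in PEN-FFW minus PEN and -0.11 in PEN-FFW minus PEN-MUT. In PEN-WT minus PEN it was -0.0035, with 51 above the median gene and 57 below, unlike the members (0.06). PEN-FFW minus PEN-WT gave -0.06 and PEN-WT minus PEN-MUT -0.04, against -0.14 and -0.03 for the members. In PEN-FFW minus PEN, 5 of the 108 were at least 1.2-fold higher and 8 lower, shares below the 20.8% and 9.87% of all tested genes. Among the other centromere genes CENPT (0.40 ± 0.05) and CENPC1 (0.24 ± 0.06) stood highest, and ZWILCH (-0.30 ± 0.04), which brings dynein to kinetochores, and SKA1 (-0.29 ± 0.06) lowest. Of further spindle genes TROAP (0.35 ± 0.04) and the kinesin KIF18B (0.32 ± 0.04) were highest and KIAA1524 (-0.26 ± 0.03) lowest. Condensin and cohesin genes lay between -0.19 (CDCA5) and 0.09 (PDS5B). Of the remaining kinases and their partners PKMYT1, which inhibits CDK1, was at 0.34 ± 0.06 and BORA, which activates PLK1, at -0.31 ± 0.07. The anaphase-promoting complex ranged from its small subunit genes CDC26 (-0.45 ± 0.14) and ANAPC13 (-0.34 ± 0.05) to the activator gene FZR1 (0.25 ± 0.03). In cytokinesis the kinase gene CIT was highest (0.39 ± 0.03) and DEPDC1B lowest (-0.26 ± 0.06).

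The 20 regulators of mitotic gene transcription had medians of 0.00 in PEN-MUT minus PEN, 0.03 in PEN-WT minus PEN and -0.04 in PEN-FFW minus PEN, with 2 at least 1.2-fold higher and 2 lower in PEN-FFW, against 20.8% and 9.87% of tested genes. FOXM1, a main activator of these genes, had 4573 normalized counts with PEN, 5015 with PEN-MUT, 5200 with PEN-WT and 4086 with PEN-FFW, and was at 0.11 ± 0.03 in PEN-FFW minus PEN. MYBL2 was at -0.05 ± 0.02. Both activators were named for their role, but after their values were seen. They lay within the quartiles of all tested genes (-0.15 and 0.21), while the list ranged from -0.73 to 0.40. CDKN1A, which codes for the CDK inhibitor p21, had 231 normalized counts with PEN, 165 with PEN-MUT, 159 with PEN-WT and 111 with PEN-FFW, the lowest of the list at -0.73 ± 0.15. E2F4, a repressor of cell cycle genes, was at -0.34 ± 0.03, and LIN37, a subunit of MuvB, at 0.40 ± 0.12.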

How the data were processed

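RNA was measured in 4 of 7 samples, and the other 3 were not analysed here. The design text names paired-end sequencing, and the submitters' processing notes list hg19, STAR 2.4.0i and featureCounts 1.5.0-p1, per the labels. Annotation, strand setting and normalization method: not given in the sources used here, so reads of overlapping genes cannot be told apart (24 members overlap another annotated gene).
The deposited values are log2 counts scaled by 1 factor per library, with scaled counts under 5 set to 5. All values above that floor (100%) were whole reads times the factor, within 0.1 read, so reads were recovered for counting errors. Columns were matched to samples by the names in their descriptions. Python 3.11.15, numpy 2.4.6, pandas 2.3.3 and scipy 1.17.1 were used, and differences and errors were tested on simulated data. Transcripts came from GENCODE 44 on GRCh37, matching 20574 genes by symbol and 1567 by a RefSeq synonym.
The members, lists and rules were chosen with earlier results of these data known. All members could be named, and from each other list up to 2 genes each way, by PEN-FFW minus PEN. FOXM1, MYBL2 and 4 printed promoters fall outside these rules and were chosen after their values were seen. SPC24, ANKRD30BL, the nuclear RNAs and the cell type markers named above also fall outside them. Settings varied were centring, pseudocount, filter, GC content, length and mean count. One gene of the regulator list is not reported here.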

Additional observations from a re-analysis of the deposited data

How the results depend on the processing

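Each peptide had 1 library, so a difference between libraries and a difference between peptides cannot be told apart, and counting errors cover neither culture nor preparation. No paired analysis was possible because each peptide had 1 library. Of the 10 settings 1, the linear fit, was chosen after seeing the data, and a pseudocount of 1 or 50 changed no median's direction and no count by over 1.5 times; the causes of the other changes were not tested.
As deposited, with no centring, the members' medians were -0.33, -0.47 and -0.44 in PEN-FFW minus PEN, PEN-MUT and PEN-WT, with 31, 35 and 39 members at least 1.2-fold lower (51.3%, 55.3% and 58.5% of tested genes on that scale), 1 higher than PEN (8.43%), 0 higher than PEN-WT (4.48%), and 5 and 1 at least 1.5-fold from PEN-MUT and PEN-WT. The members called at 1.5-fold were then lower ones, and MKI67 was not among them. PEN-MUT and PEN-WT had 2 and 5 members higher than PEN (4.98% and 11.3%). With no filter MKI67 kept its deposited values against PEN and PEN-MUT, so those pairs were in effect not centred, while PEN-FFW minus PEN-WT was (MKI67 at 0.28, against 0.24 as deposited). The same values were -0.33, -0.47 and -0.39, with 31, 35 and 36 lower (29.0%, 31.2% and 27.1% of all genes). In PEN-FFW 1 member was higher than PEN (10%), and 5 and 1 were at least 1.5-fold lower than PEN-MUT and PEN-WT (2.65% and 0.827%). PEN-MUT and PEN-WT again had 2 and 5 members higher than PEN (4.63% and 9.17%).
Centred on genes with a mean of at least 1000, the median of PEN-FFW minus PEN was 0.0076 and of PEN-FFW minus PEN-MUT -0.11, with 0, 2 and 1 members lower than PEN, PEN-MUT and PEN-WT (5.33%, 2.39% and 1.74% of tested genes), and 3 higher than PEN-MUT (24.3%). With a filter at 500, 1 was lower than PEN (6.83%), 1 lower than PEN-WT (1.3%) and 3 higher than PEN-MUT (14%).
Against genes of the same GC content, PEN-FFW had 1 member higher (17.9%) and 0 lower (9.66%) than PEN, and PEN-WT minus PEN-MUT had a median of 0.014. Against genes of the same length, PEN-FFW had 2, 3 and 1 lower than PEN, PEN-MUT and PEN-WT (8.83%, 4.26% and 2.26%), and PEN-WT 0 higher than PEN-MUT (7.82%). Against genes of the same mean count, the medians were 0.043, -0.070 and -0.072 in PEN-FFW minus PEN, PEN-MUT and PEN-WT and 0.013 in PEN-WT minus PEN-MUT, with 1, 2 and 1 lower in PEN-FFW (11%, 7.66% and 4.97%), 5 and 4 higher than PEN and PEN-MUT (17.5% and 17.0%), 1 at least 1.5-fold higher than PEN-WT (MKI67; 2.57%), and 5 higher in PEN-WT than PEN (7.54%).
In the linear fit the medians were 0.15, 0.058 and -0.023 in PEN-FFW minus PEN, PEN-MUT and PEN-WT, 0.15 in PEN-WT minus PEN and 0.057 in PEN-WT minus PEN-MUT, with 0 members at least 1.2-fold lower in PEN-FFW than PEN, PEN-MUT or PEN-WT (10.7%, 7.42% and 5.24%). There CDK1 was at 0.16 and CCNB1 at 0.042 in PEN-FFW minus PEN, and CDK1 at 0.13, UBE2C at 0.0056 and PTTG1 at 0.064 in PEN-FFW minus PEN-MUT.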

Other observations

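MKI67 was compared with genes like it in size and level, by limits chosen after its value was seen. Of 182 tested genes with a transcript of at least 8 kb and a mean normalized count of at least 5000, MKI67 included, 1 stood higher than MKI67 in PEN-FFW minus PEN and 180 lower. Their median was 0.01 (lower quartile -0.11, upper quartile 0.17), against 0.74 for MKI67. In PEN-WT minus PEN 7 of them stood higher than MKI67. Among 436 genes with a mean of at least 10000, MKI67 ranked 2 in PEN-FFW minus PEN, after ANKRD30BL. Without such limits, 95.6% of the 12578 tested genes lay below MKI67 in that comparison.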
